A study of Mus musculus with 78 samples.

Results

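Steady-state mRNA was compared between TRIM28-FKBP mouse embryonic stem cells (mESCs) treated with dTAG-13 for 2 h and the same cells in DMSO, in 3 libraries per group. The comparison covered all 54446 gene IDs that the deposited RNA-seq tables list, in 6 of the 78 samples of the series. Of these IDs, 17922 were tested, those at 1 TPM or more in 3 or more of the 15 libraries of the RNA-seq time course, and 36524 were not. TPM is a relative level corrected for gene length and for sequencing depth.

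TRIM28-FKBP mESCs derive from the V6.5 line and carry a knocked-in FKBP degron tag on the endogenous TRIM28 protein, in the DMSO controls as well as in the treated cells. The line was established from picked single colonies. dTAG-13 is a small molecule that links the FKBP tag to an E3 ubiquitin ligase, so that the tagged protein is degraded by the proteasome. The 2 h group received 500 nM dTAG-13 mixed with medium 2 h before collection. The control group (0 h) received 0.05% DMSO mixed with medium, and the labels place this addition 24 h before collection. The time since medium was added therefore differed between the groups together with dTAG-13 and any loss of TRIM28. Their contributions cannot be told apart in the RNA-seq. TRIM28 protein was not measured here, and its loss at 2 h may have been partial. The study describes the degradation as near-complete at a later time. No cells without the tag that received dTAG-13 were compared, so effects of the compound itself were not tested. Cells were grown with serum and LIF, expanded on irradiated fibroblast feeders and then depleted of feeders. Polyadenylated RNA was sequenced.

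TRIM28, also called KAP1, has no DNA-binding specificity of its own. It is tethered to chromatin by KRAB zinc finger proteins, which read sequences such as those of endogenous retroviruses (ERVs), and it acts as a scaffold for silencing enzymes, among them the H3K9 methyltransferase SETDB1. In mESCs it is known for keeping ERVs and imprinted loci silent. Steady-state mRNA is the pool left by synthesis and decay, so after a short time it reports mostly on transcripts that turn over quickly, such as immediate early and stress-response mRNAs.

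The relative depth of the 6 libraries ran from 0.822 to 1.26 of the median library of the time course. Pearson's r across genes, which are not independent replicates, was between 0.99269 and 0.99424 within groups and between 0.98904 and 0.99061 between groups. The summed level of 7 ES cell markers was 3898 to 4258 TPM in DMSO and 3717 to 3804 TPM at 2 h. The summed level of 9 feeder fibroblast markers was 23.8 to 25.1 TPM and 23.4 to 26.4 TPM, and Dcn, Col3a1, Prrx1, Postn and Lum were under 1 TPM in all 6 libraries. Mitochondrially encoded genes took 6.44%, 6% and 7.9% of the TPM in DMSO and 7.5%, 8.33% and 7.33% at 2 h. Trim28 mRNA, which is no measure of the degraded protein, was at 622, 622 and 626 TPM in DMSO and 600, 607 and 591 TPM at 2 h (log2 change -0.06, adjusted p = 0.52).

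At 2 h most differences were small. At an adjusted p below 0.05, whatever the size, 1478 genes were higher (8.25% of those tested) and 1258 were lower (7.02%). Among the 2736, the median absolute log2 change was 0.302 and 88.6% differed by less than 1.5-fold. With a change of more than 2-fold as well, 45 genes were higher (0.251%) and 22 were lower (0.123%). The 3 treated and 3 DMSO libraries did not overlap for any of these 67, which also held for 35.9% of all genes tested. The median log2 change of all genes was -0.024. Of the 11927 tested genes with a mean of at least 5 TPM, 10.9% were higher and 8.83% were lower. The calls depended on single libraries. Without DMSO replicate 1 the numbers fell to 981 higher and 685 lower, and without DMSO replicate 2 to 968 and 771. Leaving out 2 h replicate 2 left 781 lower genes, and leaving out 2 h replicate 3 left 801.

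**Figure D1:**
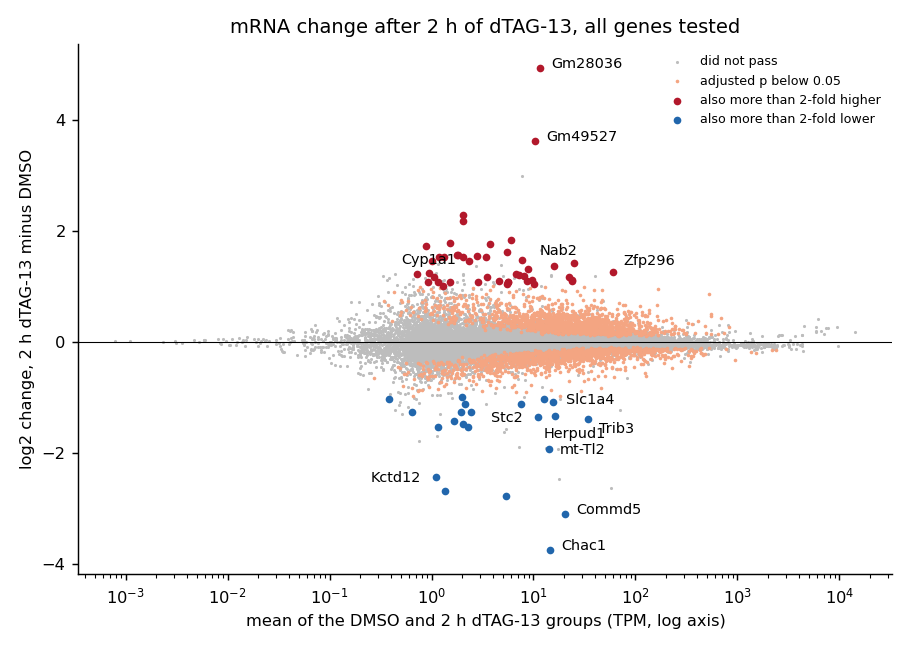
Mean level of the 2 groups (TPM, log axis) against the log2 change of 2 h dTAG-13 minus DMSO for the 17922 genes tested, 1 point per gene. Grey points did not pass, orange points have an adjusted p below 0.05, and the 45 red and 22 blue points are also more than 2-fold higher or lower. Chac1 is the lowest point, at -3.75, and most orange points lie close to 0.

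Of the 67 genes past 2-fold, 21 are annotated as protein-coding. Of these, 15 do not overlap another gene on their strand, and 10 of the 15 were lower and 5 higher. The lower ones included Chac1, Trib3, Stc2, Slc6a9, Slc1a4, Adm2, Herpud1 and Fut1. Slc1a4 was named after its values were seen. Chac1 degrades glutathione, Trib3 is a pseudokinase of the stress response, Slc6a9 carries glycine and Slc1a4 carries neutral amino acids into the cell. Adm2, at 3.29, 3.54 and 4.01 TPM in DMSO and 1.06, 0.988 and 0.699 TPM at 2 h, encodes a secreted peptide of the calcitonin family. Fut1, a fucosyltransferase, was at 3.3, 3 and 3.42 TPM and 1.16, 0.686 and 0.701 TPM (log2 change -1.49, adjusted p = 0.000117). Herpud1 encodes a membrane protein of endoplasmic reticulum (ER) associated degradation. The higher ones were Zfp296, Nab2, Cyp1a1 and the low-level predicted genes Gm12258 and Gm13199.

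Of the 22 genes lower by more than 2-fold, 4 belong to the amino acid response. This is the programme that cells run when amino acids are scarce or the ER is stressed: the kinases GCN2 or PERK phosphorylate eIF2α, the transcription factor ATF4 is translated, and it activates genes for amino acid import, amino acid synthesis and tRNA charging. ATF4 partners with C/EBP proteins at a composite element whose core can be written TGATGNAA, where N is any base. This core was searched on both strands in windows of 300 bases, from 250 before to 50 after each RefSeq start (GRCm38.p6). The core was found in 4.51% of the 27025 windows and in 2.76% of the 11294 windows matched to tested genes. Among amino acid response genes that were lower, 8 of the 18 with a window held it (44.4%), namely Asns, Atf3, Chac1, Nupr1, Pck2, Pycr1, Trib3 and Vldlr. Among those that did not pass, 1 of 8 held it (Slc7a11). A match is a description of letters, not evidence of binding. The list was made of genes already assigned to this programme, so the share may reflect how its members were chosen. The windows of 5 lower genes are shown because they carry this core. Capitals mark the match, on either strand, and each window is written 5′ to 3′ in the direction of the gene. The windows lie at chr2:119350992-119351291 for Chac1 (plus strand), chr2:152344011-152344310 for Trib3 (minus strand), chr19:27216770-27217069 for Vldlr (plus strand), chr14:55540016-55540315 for Pck2 (plus strand) and chr6:7693160-7693459 for Asns (minus strand).
Chac1: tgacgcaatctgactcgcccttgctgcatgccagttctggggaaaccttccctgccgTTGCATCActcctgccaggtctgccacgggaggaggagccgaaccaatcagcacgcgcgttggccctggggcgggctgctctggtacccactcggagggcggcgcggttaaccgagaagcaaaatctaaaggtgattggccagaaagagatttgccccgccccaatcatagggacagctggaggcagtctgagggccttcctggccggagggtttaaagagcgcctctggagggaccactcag
Trib3: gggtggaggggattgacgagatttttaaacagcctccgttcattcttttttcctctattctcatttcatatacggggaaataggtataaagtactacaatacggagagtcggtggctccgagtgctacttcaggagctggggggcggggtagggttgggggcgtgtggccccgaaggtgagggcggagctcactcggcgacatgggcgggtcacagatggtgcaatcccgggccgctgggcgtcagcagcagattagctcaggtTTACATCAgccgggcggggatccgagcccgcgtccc
Vldlr: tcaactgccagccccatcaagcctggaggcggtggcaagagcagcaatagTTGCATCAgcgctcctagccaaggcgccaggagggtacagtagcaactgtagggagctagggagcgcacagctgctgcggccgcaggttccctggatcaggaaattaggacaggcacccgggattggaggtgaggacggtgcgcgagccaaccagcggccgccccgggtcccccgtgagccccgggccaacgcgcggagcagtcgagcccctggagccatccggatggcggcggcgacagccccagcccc
Pck2: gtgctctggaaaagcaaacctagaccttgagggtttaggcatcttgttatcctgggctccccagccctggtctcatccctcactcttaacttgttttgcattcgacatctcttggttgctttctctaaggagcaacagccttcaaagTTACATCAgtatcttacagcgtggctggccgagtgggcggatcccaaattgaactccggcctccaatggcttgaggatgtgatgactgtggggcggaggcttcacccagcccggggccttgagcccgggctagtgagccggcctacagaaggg
Asns: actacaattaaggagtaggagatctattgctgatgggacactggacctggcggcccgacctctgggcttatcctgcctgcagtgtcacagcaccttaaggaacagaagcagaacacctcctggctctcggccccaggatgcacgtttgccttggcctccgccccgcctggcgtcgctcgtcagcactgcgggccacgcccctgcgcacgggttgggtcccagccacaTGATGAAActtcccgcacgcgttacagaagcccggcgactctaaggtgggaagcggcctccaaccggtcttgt

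In these windows the first base of the match lay 193 bases before the start in Chac1, 200 in Vldlr, 103 in Pck2 and 23 in Asns, and at base 15 after the start in Trib3. As other motifs, the cyclic AMP response element TGACGTCA was in none of the 18 windows of lower amino acid response genes, in 2.03% of all windows and in 3.51% of those of tested genes. The AP-1 letters TGANTCA were in 1 of the 18 (Slc7a1), in 8.97% of all and in 5.95% of tested genes. The E-box CACGTG was in 2 of the 18 (11.1%), in 8.09% of all and in 11.6% of tested genes.

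Of 32 amino acid response genes tested, 19 were lower (59.4%, against 7.02% of all genes) and none was higher. Their median log2 change was -0.355. The largest difference was in Chac1 (chr2:119351229-119354381, plus strand), with 27.9, 31.1 and 23.6 TPM in DMSO and 1.42, 1.49 and 1.81 TPM at 2 h. The treated libraries held 5.71% of the DMSO mean and lay far below every control (log2 change -3.75, SE 0.13, adjusted p = 2.93e-09). Trib3 (chr2:152337422-152344032, minus strand) was at 52.1, 51.8 and 47.1 TPM in DMSO and 18.7, 20 and 17.9 TPM at 2 h (log2 change -1.39, SE 0.07, adjusted p = 1.37e-07). Stc2, which encodes the secreted glycoprotein stanniocalcin 2, was at 16.5, 16.4 and 15 TPM and 6.07, 6.25 and 5.49 TPM (log2 change -1.35, adjusted p = 1.01e-07). In all 3 the treated group was tight and clear of the control group. Groups were clear of each other in 35.9% of all genes tested. Slc6a9 was at 10.9, 9.63 and 10.8 TPM in DMSO and 4.28, 4.91 and 4.44 TPM at 2 h, the fourth member past 2-fold (log2 change -1.12, adjusted p = 0.000528). Slc1a4, outside the list, was at 21.5, 22.2 and 20.8 TPM and 9.2, 9.97 and 10.3 TPM (log2 change -1.09, adjusted p = 1.64e-07).

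The transcription factors at the head of the programme were lower by less. Atf4 itself was at 265, 263 and 271 TPM in DMSO and 188, 191 and 196 TPM at 2 h (log2 change -0.47, adjusted p = 1.52e-06). Atf3, a factor induced downstream of ATF4, was at 11.3, 11 and 12.6 TPM and 8.16, 7.21 and 9.23 TPM (log2 change -0.48, adjusted p = 0.00401). Neither pair of groups overlapped, as for 35.9% of all genes tested. Nupr1, a small chromatin-binding stress protein, went from 36.9, 35.6 and 36.1 TPM to 27.7, 23 and 22.4 TPM (log2 change -0.57, adjusted p = 0.0064), and Ddit4, an inhibitor of mTORC1, from 69.6, 71.8 and 64.9 TPM to 49.4, 51.1 and 49.2 TPM (log2 change -0.46). Ddit3 (CHOP) and Cebpb did not pass, with log2 changes of -0.22 and -0.39, and Atf5 had a log2 change of -0.09.

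Enzymes and carriers of the programme followed with graded sizes. Pck2, the mitochondrial phosphoenolpyruvate carboxykinase, fell from 48.2 ± 1.21 to 30.3 ± 2.5 TPM (SD, n = 3 per group; log2 change -0.66). Mthfd2, of mitochondrial one-carbon metabolism, fell from 155 ± 5.76 to 101 ± 1.72 TPM (log2 change -0.61). Asns, asparagine synthetase, was at 412, 413 and 387 TPM in DMSO and 356, 336 and 316 TPM at 2 h, a decrease that passed the test and amounted to -0.27 on the log2 scale (adjusted p = 0.00288). Shmt2 and Psat1, of serine and glycine metabolism, had log2 changes of -0.30 and -0.29, and Pycr1, of proline synthesis, -0.43. The carriers Slc7a1, Slc3a2 and Slc7a5 had -0.38, -0.35 and -0.31. Vldlr, a lipoprotein receptor on the list, went from 5.45, 4.82 and 4.42 TPM to 2.86, 2.39 and 2.64 TPM (log2 change -0.79, adjusted p = 0.00727). Gdf15 (log2 change -0.69, adjusted p = 0.0224) lost its call in 5 alternative settings. With any 1 of the 6 libraries left out, between 17 and 21 members were lower.

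**Figure D2:**
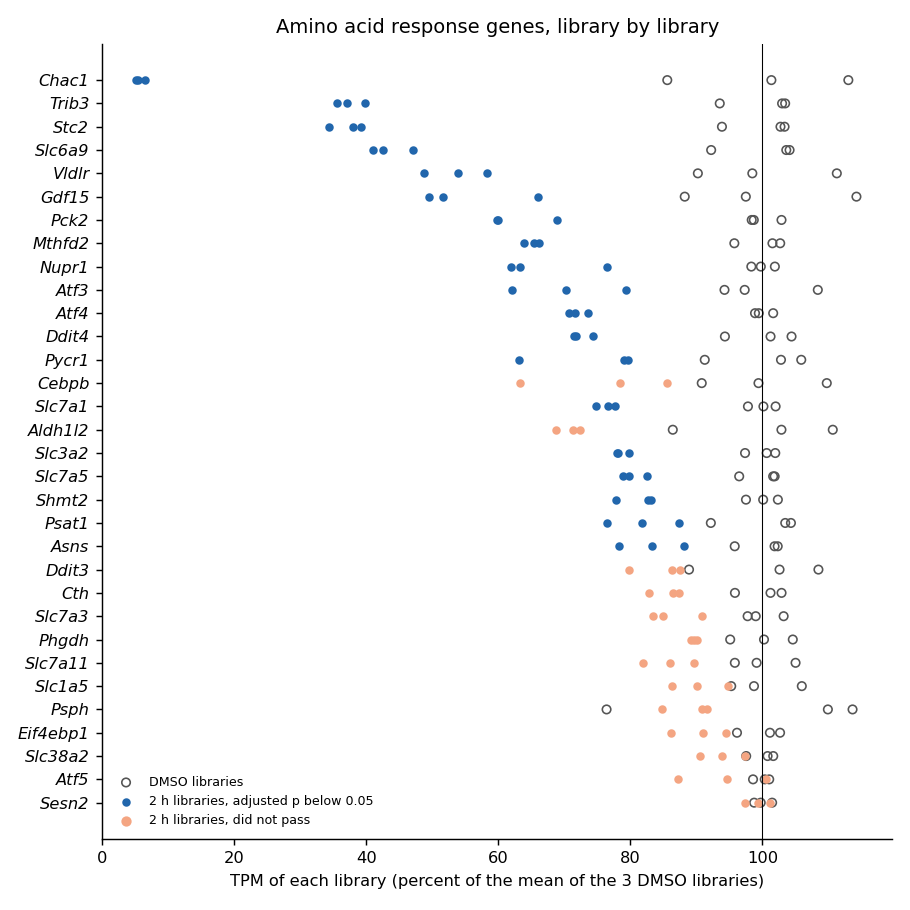
TPM of each library for the 32 amino acid response genes, as a percent of the mean of the 3 DMSO libraries. Open circles are DMSO libraries, filled circles are 2 h libraries, coloured by whether the gene passed at an adjusted p below 0.05, and genes are ordered by log2 change. Chac1 sits near 5.71% of the DMSO mean, and the lower genes run up to Asns, whose 2 h libraries all lie under their controls.

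Cytosolic tRNA synthetases, which load amino acids onto tRNAs and many of which are ATF4 targets, were lower as well. Of 20 tested, 13 were lower (65%, against 7.02% of all genes) and none was higher, with a median log2 change of -0.193. Cars, for cysteine, was at 147 TPM in each DMSO library and at 121, 111 and 110 TPM at 2 h (log2 change -0.36, adjusted p = 0.000633). Yars was at 142, 140 and 138 TPM and 111, 112 and 106 TPM (log2 change -0.35, adjusted p = 0.000455), and Aars was at 250, 247 and 236 TPM and 206, 200 and 194 TPM (log2 change -0.29). In these 3 genes no treated library reached a control, and 35.9% of all genes tested had groups that did not overlap. The smallest decreases on the list that passed were in Vars (-0.14) and Mars (-0.18), and Qars had a log2 change of 0.05. Of the 8 lower synthetases with a promoter window, 5 held the TGATGNAA core (Aars, Gars, Iars, Tars and Yars) and 4 held the E-box CACGTG (Aars, Farsb, Iars and Tars). These are 62.5% and 50%, against 2.76% and 11.6% of the windows of tested genes. Synthetases that did not pass were not counted as a group. A match is a description of letters, and a link to the decrease was not tested. With 1 library left out, 10 to 12 members were lower.

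Of 15 genes of the unfolded protein response, the branch of stress signalling that raises ER chaperones, 3 were lower and none was higher (median log2 change -0.012). The share lower was 20%, against 7.02% of all genes tested. Herpud1 was at 23.8, 23.7 and 22.7 TPM in DMSO and 9.32, 8.16 and 9.23 TPM at 2 h (log2 change -1.35, SE 0.06, adjusted p = 5.75e-08). The decreases of Xbp1 (-0.26) and Pdia4 (-0.17) were small. The main chaperone Hspa5 had a log2 change of 0.05 and did not pass. Among 17 heat shock genes only Dnajb1, a co-chaperone of HSP70, passed (higher, 0.30). This is 5.88%, against 8.25% higher among all genes tested.

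Immediate early genes, which growth factors and stress switch on without new protein synthesis, changed in both directions. Of 34 tested, 17 were higher, 5 were lower and 12 did not pass, with a median log2 change of 0.226. The shares were 50% higher and 14.7% lower, against 8.25% and 7.02% of all genes tested. Arc, a cytoskeleton-associated early gene, was at 13.6, 12.5 and 12.4 TPM in DMSO and 24.6, 25.7 and 24.4 TPM at 2 h (log2 change 0.93, SE 0.08, adjusted p = 6.55e-06). Zfp36, which encodes an RNA-binding protein that speeds the decay of AU-rich mRNAs, was at 19.1, 20 and 21.3 TPM and 36.6, 36.7 and 35.7 TPM (log2 change 0.84, adjusted p = 2.45e-07). Gadd45g, a growth arrest gene, was at 28.1, 31.3 and 32.2 TPM and 47.3, 48.3 and 47.6 TPM (log2 change 0.64). The groups were clear of each other in all 3, as in 35.9% of all genes tested. Nr4a1, an orphan nuclear receptor, Btg2, an antiproliferative gene, and Junb, an AP-1 subunit, had log2 changes of 0.55, 0.51 and 0.47. Fos, at 5.64, 5.09 and 6.06 TPM in DMSO and 7.26, 7.62 and 7.36 TPM at 2 h, rose by less (log2 change 0.38, adjusted p = 0.0121).

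The 5 lower immediate early genes were Egr1, Dusp1, Myc, Ier3 and Jund. Egr1, a zinc finger factor, was at 18, 17.1 and 17.3 TPM in DMSO and 13.5, 13.4 and 12.3 TPM at 2 h (log2 change -0.41, adjusted p = 0.00359). Dusp1, a MAP kinase phosphatase, went from 67, 70 and 68.7 TPM to 52.5, 51.9 and 55.4 TPM (log2 change -0.36). For Myc the values were 130, 121 and 123 TPM and 108, 102 and 102 TPM (log2 change -0.26, adjusted p = 0.00532). With 1 library left out, 15 to 18 members were higher, and the lower count was 3 without DMSO replicate 1, DMSO replicate 2 or 2 h replicate 3. Nab2, a corepressor that binds EGR proteins, is not on the list and was named after its values were seen. It was at 9.15, 8.15 and 8.62 TPM in DMSO and 23, 24.4 and 21.8 TPM at 2 h (log2 change 1.37, adjusted p = 9.38e-08), and it overlaps 2 genes on the opposite strand.

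The signalling pathways that serum and LIF feed in mESCs changed in both directions. FGF-ERK signalling limits itself through phosphatases and Sprouty proteins, and of 19 such genes 5 were higher and 5 lower (median log2 change 0.056). Each count is 26.3% of the list, against 8.25% higher and 7.02% lower among all genes tested. Spry4 was at 36.3, 36.2 and 36.3 TPM in DMSO and 57.6, 54.5 and 53.7 TPM at 2 h (log2 change 0.60, adjusted p = 0.000193). The ERK phosphatases Dusp5 and Dusp6 rose by 0.57 and 0.54 on the log2 scale, from 27.2 ± 0.636 to 40.6 ± 1.04 TPM and from 72.7 ± 1.88 to 106 ± 5.64 TPM (SD, n = 3 each). Fgf4, the ligand that mESCs make, went from 138, 131 and 133 TPM to 158, 163 and 156 TPM (log2 change 0.25, adjusted p = 0.0074). Lower were Spry1 (-0.36), Il17rd (-0.32), Etv5 (-0.25), Spred1 (-0.25) and Spred2 (-0.16). The lower count fell to 3 without DMSO replicate 1, DMSO replicate 2 or 2 h replicate 1.

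LIF acts through STAT3, and of 15 genes of this pathway 4 were higher and 4 lower (median log2 change 0.007). Each count is 26.7% of the list, against 8.25% higher and 7.02% lower among all genes tested. Gbx2, a homeobox target of STAT3, was at 61.2, 60.9 and 54.8 TPM in DMSO and 35, 31.9 and 31.4 TPM at 2 h (log2 change -0.84, SE 0.08, adjusted p = 1.5e-05). Klf5, Pim1 and Klf4 were also lower, at -0.46, -0.38 and -0.26. Socs3, the feedback inhibitor of the receptor, was at 69.1, 68.7 and 69.4 TPM and 87.2, 85.4 and 83.1 TPM (log2 change 0.30, adjusted p = 0.000166). Cish, another inhibitor of the SOCS family, and Junb rose by 0.49 and 0.47. Lifr and Stat3 did not pass, at 0.01 and 0.08.

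In the Nodal pathway, the ligand Nodal rose from 63, 67.8 and 64.2 TPM to 93.7, 90.6 and 92.4 TPM (log2 change 0.50, adjusted p = 5.94e-05). Its co-receptor Tdgf1, its receptor Acvr1b and its antagonist Lefty2 were lower, at -0.33, -0.32 and -0.30, and 6 of the 10 genes did not pass. The Lefty2 call was lost in 6 settings. Leaving out any single library other than 2 h replicate 1 gave 2 lower genes. Of 12 BMP-Id genes, Msx1 (0.85, from 1.23 ± 0.192 to 2.61 ± 0.393 TPM) and Id1 (0.36) were higher. The Id1 call was lost in 6 settings, and the count was 1 without DMSO replicate 1, DMSO replicate 3, 2 h replicate 2 or 2 h replicate 3. Of 13 Wnt targets, Axin2 (0.43), Sp5 (0.34) and Znrf3 (0.25) were higher and Lef1 (-0.28) was lower. The higher count fell to 1 without DMSO replicate 1 or 2 h replicate 2. Shares higher and lower were 10% and 30% for Nodal, 16.7% and 0% for BMP-Id and 23.1% and 7.69% for Wnt genes. Among all genes tested they were 8.25% and 7.02%.

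Genes of sterol synthesis were mostly higher. Cholesterol synthesis and uptake are controlled by SREBP2, which is released from the ER when sterols are low. Of 24 genes tested, 16 were higher (66.7%, against 8.25% of all genes) and none was lower, and the median log2 change was 0.326. Hsd17b7, an enzyme of zymosterol synthesis, was at 8.05, 8.33 and 8.36 TPM in DMSO and 14.2, 14.4 and 14.5 TPM at 2 h (log2 change 0.76, SE 0.06, adjusted p = 5.39e-06). Cyp51, lanosterol demethylase, was at 35.2, 35.5 and 34.5 TPM and 61.7, 58.3 and 57.8 TPM (log2 change 0.75, adjusted p = 4.6e-07). All treated libraries lay above all controls in both genes, and 35.9% of all genes tested had groups that did not overlap. Insig1, which holds SREBP2 in the ER, rose by 0.66 on the log2 scale. Sqle and Hmgcs1 had log2 changes of 0.40 and 0.39. Srebf2, the gene of SREBP2, had a log2 change of -0.02 and did not pass. With 1 library left out, 14 or 15 members were higher.

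Targets of the tumour suppressor p53 were also higher, 12 of 20 (60%, against 8.25% of all genes) with none lower (median log2 change 0.321). Polk, a translesion DNA polymerase, was at 12.8, 11 and 12.6 TPM in DMSO and 20.1, 19.6 and 20.3 TPM at 2 h (log2 change 0.70, adjusted p = 1.38e-05). Mdm2, the ubiquitin ligase that limits p53, was at 126, 120 and 127 TPM and 212, 183 and 198 TPM (log2 change 0.67, adjusted p = 8.2e-06). Cdkn1a, the cell cycle inhibitor p21, was at 69.8, 68.3 and 67.6 TPM and 104, 98.4 and 102 TPM (log2 change 0.56, adjusted p = 9.52e-05). No treated library fell into the range of the controls for these 3 genes, as for 35.9% of all genes tested. Eda2r (0.62), Trp53inp1 (0.53), Ccng1 (0.38) and the proapoptotic Bbc3 (0.25) were higher too. Bax (0.04), Fas (0.15) and Pmaip1 (0.08) did not pass. With 1 library left out, 11 or 12 members were higher, and 1 was lower without DMSO replicate 3.

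Of 10 NRF2 targets, genes of the oxidative stress defence, 6 were higher (60%, against 8.25% of all genes), with a median log2 change of 0.185. Hmox1, heme oxygenase 1, was at 140, 146 and 146 TPM in DMSO and 185, 188 and 196 TPM at 2 h (log2 change 0.40, adjusted p = 6.56e-06). Gclc, of glutathione synthesis, rose by 0.38, and Sqstm1, Srxn1, Txnrd1 and Me1 rose by 0.16 to 0.22. Without 2 h replicate 3 the count fell to 3. Cyp1a1, a target of the aryl hydrocarbon receptor and outside these lists, was at 0.818, 0.895 and 0.671 TPM and 3.07, 3.2 and 3.46 TPM (log2 change 1.53, SE 0.15, adjusted p = 2.92e-05).

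Some genes of glucose use and of the hypoxia response were lower. Of 15 gene IDs of glycolysis (14 symbols), 11 were lower (73.3%, against 7.02% of all genes) and none was higher (median log2 change -0.193). Hk2, hexokinase 2, was at 134, 131 and 125 TPM in DMSO and 96.8, 98.8 and 99.5 TPM at 2 h (log2 change -0.40, adjusted p = 1.64e-05). Pfkl, the liver-type phosphofructokinase, went from 129, 133 and 129 TPM to 108, 102 and 104 TPM (log2 change -0.31, adjusted p = 0.000114). These calls rested on small differences: the count fell to 5 without DMSO replicate 1, DMSO replicate 2 or 2 h replicate 3, and to 4 without 2 h replicate 2. Of 24 hypoxia-response genes, 12 did not pass, 11 were lower and 1, the glycolytic regulator Pfkfb3 (0.44), was higher (median log2 change -0.262). The shares were 45.8% lower and 4.17% higher, against 7.02% and 8.25% of all genes tested. Vegfa, the angiogenic growth factor, was at 37.7, 36 and 39.9 TPM and 21.5, 19.2 and 19.8 TPM (log2 change -0.89, SE 0.11, adjusted p = 0.000125). Slc2a1, the glucose carrier GLUT1, was at 381, 392 and 380 TPM and 287, 282 and 280 TPM (log2 change -0.44, adjusted p = 9.72e-06). Bnip3, of mitophagy, P4ha1, a prolyl hydroxylase of collagen, and Egln3, which marks HIF for degradation, were lower by -0.54, -0.50 and -0.46. Arrdc3, an arrestin-domain gene that responds to glucose, was at 83.4, 84.8 and 77.8 TPM and 59, 54.5 and 61.5 TPM (log2 change -0.49). Its relative Txnip did not pass (-0.15).

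**Figure D3:**
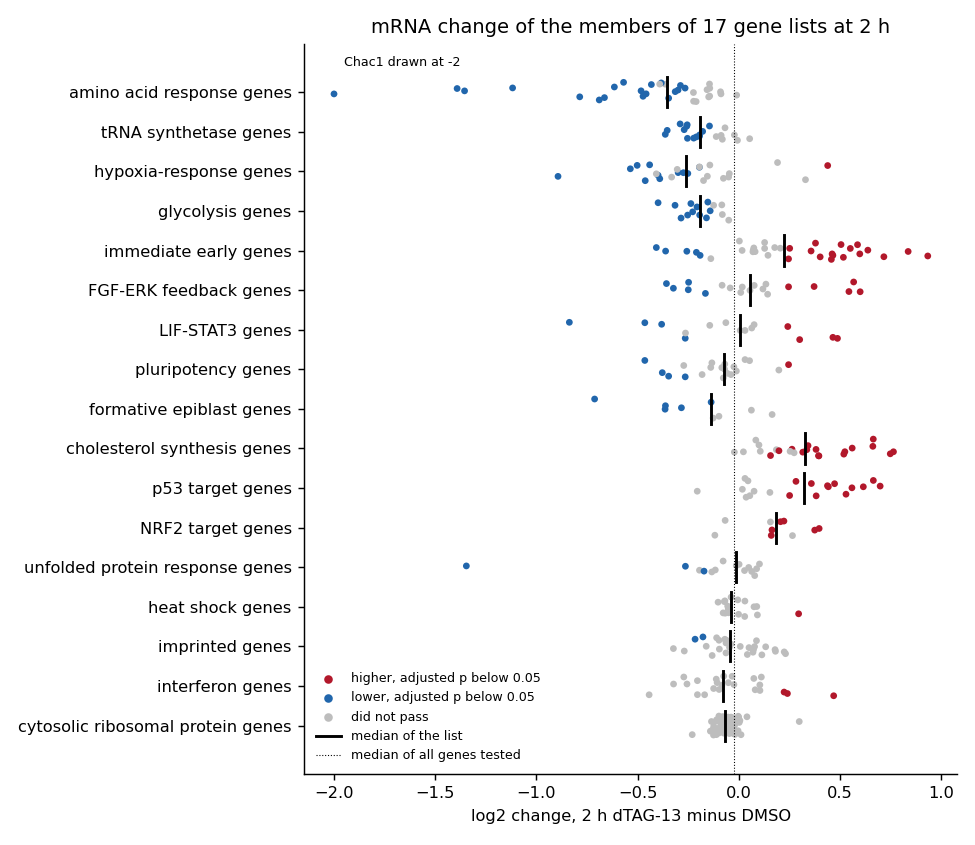
Log2 change of each tested member of 17 gene lists at 2 h, 1 point per gene, spread vertically at random for visibility. Red and blue points were higher or lower at an adjusted p below 0.05, grey points did not pass, black bars are list medians and the dotted line is the median of all genes, -0.024. Amino acid response and tRNA synthetase genes lie to the left, with 19 of 32 and 13 of 20 blue, and cholesterol synthesis and p53 target genes to the right, with 16 of 24 and 12 of 20 red. Chac1, at -3.75, is drawn at -2.

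The core pluripotency factors were close to their DMSO level at 2 h. Pou5f1 (OCT4), Sox2, Nanog and Mycn did not pass, with log2 changes of -0.08, -0.07, -0.01 and -0.07. Pou5f1 was at 1162 ± 20.3 TPM in DMSO and 1102 ± 33.2 TPM at 2 h (SD, n = 3 each). Of 20 pluripotency genes, 4 were lower (20%) and 1, Fgf4, was higher (5%), with a median log2 change of -0.073. Among all genes tested, 7.02% were lower and 8.25% higher. Klf5 went from 94, 92 and 86.8 TPM to 67.8, 64.7 and 64.7 TPM (log2 change -0.46, adjusted p = 0.000282), and Klf4 from 43, 45.5 and 43.9 TPM to 37.6, 37 and 35.3 TPM (log2 change -0.26, adjusted p = 0.00105). Sall1 (-0.35) and Prdm14 (-0.38) were lower too, the latter with a call lost in 8 settings. Of 9 genes of the formative epiblast, the state that follows naive pluripotency, 5 were lower (55.6%): Foxd3 (-0.71, from 27.7 ± 1.36 to 16.7 ± 0.816 TPM), Otx2 (-0.36), Pou3f1 (-0.36), Lef1 (-0.28) and Dnmt3b (-0.14). This count fell to 3 without DMSO replicate 1, DMSO replicate 2, 2 h replicate 2 or 2 h replicate 3.

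Genes of other lineages and of ERV-linked states were tested in short lists, against 8.25% higher and 7.02% lower among all genes. The trophoblast and neural lists had 12.5% in each direction, and interferon genes had 12.5% higher. Genes of the TRIM28 complex and of ERV silencing had 9.38% higher and 12.5% lower, and imprinted genes had 6.9% lower. Of 14 endoderm and 6 mesoderm genes tested none passed in limma, and at an unadjusted p below 0.05 there were 0 higher and 3 lower endoderm genes and 1 higher and 0 lower mesoderm genes. Without DMSO replicate 3, 3 endoderm genes were lower. Among 8 trophoblast genes Gata3 was higher (0.42) and Hand1 lower (-0.31), and among 8 neural genes Dll1 was higher (0.42) and Sox1 lower (-0.27). None of 17 genes of the 2-cell state passed, their log2 changes ran from -0.11 to 0.09, and 0 had an unadjusted p below 0.05 in limma. Of 29 imprinted genes, 2 were lower, Igf2r (-0.22) and Grb10 (-0.18), and 1 was without DMSO replicate 1, DMSO replicate 2 or 2 h replicate 3. H19 (-0.32) did not pass. Of 24 interferon genes, which sense double-stranded RNA or respond to it, Irf9 (0.47), Eif2ak2 (0.24) and Irgm1 (0.22) were higher. Irf9 was at 8.17, 7.17 and 9.85 TPM and 12.1, 11.9 and 11.2 TPM. Of 32 genes of the TRIM28 complex and of ERV silencing, 3 were higher and 4 lower (median log2 change -0.035). Zfp809, a KRAB zinc finger gene whose protein binds retroviral primer sites, rose from 74.3, 75.6 and 83.3 TPM to 100, 93.3 and 96.7 TPM (0.31). Gm15446 (0.27) and Setdb1 (0.13) were higher, and Ehmt1 (-0.28), Dnmt1 (-0.19), Chd4 (-0.14) and Uhrf1 (-0.12) were lower. The calls of Setdb1 and Uhrf1 were each lost in 5 settings. The lower count was 2 without DMSO replicate 1.

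Position relative to super-enhancers (SEs) or ERVs was read from the element lists of the study. The nearest active genes to the 231 SEs numbered 214, at a median distance of 10.6 kb. Of these 22 were higher (10.3%) and 37 lower (17.3%), with a median log2 change of -0.065. Of all genes with a mean of at least 5 TPM, 10.9% were higher and 8.83% lower. With 1 library left out, 16 to 19 of the genes nearest an SE were higher and 25 to 36 lower. Their largest values were in the noncoding Snhg20 (0.76, from 27.7, 23.8 and 35.8 TPM to 52.8, 49.1 and 45 TPM) and in Gpt2, an alanine aminotransferase (-0.63, from 78.6, 74.2 and 72.4 TPM to 50.5, 47.3 and 47.3 TPM). Of 482 tested genes that start within 50 kb of 1 of the 780 full-length MMERVK elements, 39 were higher (8.09%) and 19 lower (3.94%), against 8.25% and 7.02% of all genes, and the median log2 change was -0.007. With 1 library left out, 26 to 37 genes near MMERVK were higher and 13 to 18 lower. Zfp773, among the higher genes near MMERVK, was at 2.64, 2.13 and 3.32 TPM in DMSO and 4.94, 4.74 and 4.94 TPM at 2 h (log2 change 0.76, adjusted p = 0.00159). For the 445 MMETn elements, 16 of 211 tested genes were higher (7.58%) and 12 lower (5.69%), with a median log2 change of 0.000468. The higher count fell to 10 without DMSO replicate 2. Without DMSO replicate 1 the lower count was 5, and it was 6 without DMSO replicate 2, 2 h replicate 2 or 2 h replicate 3.

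Zinc finger genes of the Zfp series, many of which encode KRAB proteins that work with TRIM28, numbered 353 tested. Of these 82 were higher (23.2%, against 8.25% of all genes) and 34 lower (9.63%), with a median log2 change of 0.083. Zfp296, a zinc finger gene expressed in pluripotent cells, was at 36.3, 37 and 32.8 TPM in DMSO and 86.2, 85.7 and 82.7 TPM at 2 h (log2 change 1.25, SE 0.08, adjusted p = 3.69e-07). The treated group stood at 240% of the DMSO mean with no overlap, which also held for 35.9% of all genes tested. Zfp296 overlaps 1 other gene on the opposite strand. Zfp790 was at 4.42, 4.34 and 4.74 TPM and 8.48, 8.81 and 9.37 TPM (log2 change 0.91, adjusted p = 4e-06). Zfp276 (0.86), Zfp36 (0.84), the gene of the RNA-binding protein named above, and Zfp950 (0.80) followed. The higher count fell to 58 without DMSO replicate 2 and to 61 without 2 h replicate 1. The lower count fell to 21 without DMSO replicate 1 and to 18 without 2 h replicate 2.

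Further lists ranged from no calls among ribosomal protein genes to shares above those of all genes (8.25% higher and 7.02% lower). Among the latter were circadian genes, with 21.4% higher and 14.3% lower, and YAP targets, with 25% and 16.7%. None of 83 cytosolic ribosomal protein genes passed in limma, with a median log2 change of -0.067, with 0 higher and 8 lower at an unadjusted p below 0.05. Without DMSO replicate 3, 4 of them were lower. Of 17 mitosis genes Aurka was higher (0.17), and of 15 G1-S genes Ccne2 was higher (0.32) and Mcm3 lower (-0.12). Circadian genes gave 3 higher, among them Tef (0.46), and 2 lower, among them Ciart, a repressor of the clock (11.6, 10.7 and 10.8 TPM against 6.33, 6.1 and 4.63 TPM, log2 change -0.91, adjusted p = 0.000899). The lower circadian count was 1 without any DMSO replicate, without 2 h replicate 1 or without 2 h replicate 2. YAP targets gave 3 higher (Cyr61, Ajuba and Amotl2) and 2 lower (Axl and Crim1) of 12. SRF cytoskeletal genes gave 2 higher of 14 (Cnn1 and Myl9), polyamine genes 2 of 9 (Azin1 and Amd1) and NF-kB targets 1 of 10 (Icam1, 0.15). Feeder fibroblast genes gave Twist1 higher (0.35) and Mfap5 lower (-0.46). With 1 library left out, the higher counts of the NF-kB, polyamine, SRF, mitosis, G1-S, trophoblast and feeder lists and the lower counts of the YAP, G1-S, neural and feeder lists reached 0 at their lowest. The libraries whose removal gave 0 were DMSO replicate 3, 2 h replicate 1 or 2 h replicate 3 for polyamine genes, DMSO replicate 1 or 2 h replicate 3 for SRF genes, and DMSO replicate 3 or 2 h replicate 1 for YAP targets. They were DMSO replicate 1, DMSO replicate 2 or 2 h replicate 3 for NF-kB targets, and DMSO replicate 2 or 2 h replicate 1 for the higher feeder gene.

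Short and non-polyadenylated RNAs made up much of the list past 2-fold, where values from a poly(A) library are less certain. Of the 67 genes, 32 were under 300 bp, 27 of them higher, and 19 of the 32 lie inside another gene on the same strand. All 12 higher microRNA genes among them sit within a host gene, 7 of whose hosts were higher at an adjusted p below 0.05, by 0.48 at most on the log2 scale. Of 37 mitochondrially encoded genes, 13 were higher (35.1%, against 8.25% of all genes) and 1 lower (2.7%, against 7.02%), with a median log2 change of 0.254. These were 12 higher tRNA genes, the rRNA gene mt-Rnr1, and the lower tRNA gene mt-Tl2. mt-Rnr1 was at 344, 334 and 451 TPM in DMSO and 643, 738 and 647 TPM at 2 h (log2 change 0.85, adjusted p = 0.00355). mt-Ty was at 13.4, 12.2 and 14.9 TPM and 33.5, 39.4 and 37.6 TPM (log2 change 1.42), whereas mt-Tl2 was at 27.5, 18.4 and 22.8 TPM and 6.86, 6.16 and 4.02 TPM (log2 change -1.93). None of the mitochondrial mRNAs passed. Of 61 histone genes, whose mRNAs mostly lack a poly(A) tail, 3 near-identical H2A genes (Hist1h2ai, Hist1h2ao and Hist1h2ap) were higher, by 0.46 to 0.49. This is 4.92%, below the 8.25% of all genes tested. The Hist1h2ai call was lost in 7 settings, which included leaving out any single library. The count of higher histone genes was 1 without DMSO replicate 1 or 2 h replicate 2, and 13 in a fit of the 6 libraries alone.

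Some of the largest changes were in gene models that overlap another on the same strand, whose values are uncertain because the counting could split reads between them. The part of this in the changes was not tested. Commd5 was at 31.7, 32.5 and 32 TPM in DMSO and at 0.984, 23.9 and 0.985 TPM at 2 h, while the overlapping Gm49527 went from 0.499, 0.975 and 0.878 TPM to 28.3, 4.18 and 27.2 TPM. Their sum was 32.2, 33.4 and 32.9 TPM in DMSO and 29.2, 28.1 and 28.2 TPM at 2 h. Both calls were lost without 2 h replicate 1 or 2 h replicate 3. Gm28036 rose from 0, 0.957 and 0.105 TPM to 27.2, 21.3 and 20.3 TPM (log2 change 4.93), and it overlaps Nfs1, Cpne1 and Rbm12 on its strand. Cpne1 fell from 38.3, 39.3 and 38.1 TPM to 21.7, 22.3 and 26.4 TPM, and the sum of the 4 was 115 to 128 TPM in DMSO and 113 to 118 TPM at 2 h. Gm49380, lower by -2.77, overlaps Rnf26, and its call was lost in 7 settings, which included leaving out any single library other than DMSO replicate 2. Kctd12, of a family of receptor auxiliary proteins, overlaps no other gene with a mean above 0.5 TPM on either strand. It was at 2.57, 2.07 and 2.02 TPM in DMSO and is listed at 0 in all 3 treated libraries, and its call was lost without DMSO replicate 1.

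Nascent RNA gave a separate reading of the same time point from other libraries. The labels do not say how long before collection DMSO was added to its controls. Whether the time since medium was added differed between these groups is therefore unknown. In TT-SLAM-seq, cells are labelled with 4-thiouridine, here for 15 min, newly made RNA is enriched, and labelled reads are recognised by T-to-C changes. The unit was FPKM, and 13357 genes were tested in 3 libraries at 2 h and 3 in DMSO. Of these 211 were higher (1.58%) and 263 lower (1.97%), and centring each library on its median turned this split to 459 higher and 220 lower. These calls depended strongly on single libraries. Without DMSO replicate 1 there were 95 higher and 69 lower, without DMSO replicate 2 there were 46 and 25, without 2 h replicate 1 there were 34 and 30, and without 2 h replicate 2 there were 36 and 36. Without 2 h replicate 3 there were 506 higher.

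Of the 1238 genes higher in mRNA and tested in both assays, 32 were higher in nascent RNA (2.58%) and 8 lower (0.646%). Of the 873 lower in mRNA, 41 were lower (4.7%) and 37 higher (4.24%). Among the 8229 that did not pass in mRNA, 119 were higher and 183 lower in nascent RNA. Thus 118 genes were called in both assays, 73 in the same direction and 45 in opposite directions. The balance rested on single libraries, with 22 and 23 without DMSO replicate 1, 9 and 10 without DMSO replicate 2, 62 and 34 without DMSO replicate 3, 9 and 8 without 2 h replicate 1, 9 and 11 without 2 h replicate 2, and 88 and 86 without 2 h replicate 3. With centred libraries it was 88 and 76. Leaving out 1 TT-SLAM-seq library moved the number that were lower in mRNA and higher in nascent RNA between 8 (without 2 h replicate 1) and 75 (without 2 h replicate 3). It was 22 without DMSO replicate 1, 10 without DMSO replicate 2, 24 without DMSO replicate 3 and 11 without 2 h replicate 2.

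Among genes called in both and higher in both, Spry4 was at 4.45, 2.96 and 3.69 FPKM in DMSO and 15, 13.7 and 17.2 FPKM at 2 h (nascent log2 change 1.92, adjusted p = 0.000765). Socs3 was at 6.67, 5.9 and 7.09 FPKM and 17, 16.8 and 18.4 FPKM (1.35, adjusted p = 0.00277), and Zfp36, Junb and Dusp6 had nascent log2 changes of 1.26, 1.19 and 1.11. For these 5 genes the nascent change exceeded the mRNA change, which was between 0.30 and 0.84. Whether the 2 changes differ was not tested. Opposite directions were seen for Gbx2, whose nascent RNA was at 1.45, 1.7 and 1.66 FPKM and 3.48, 3.8 and 5.74 FPKM (1.18, adjusted p = 0.0104) while its mRNA was lower by -0.84. Egr1, with nascent values of 16.5, 10.3 and 4.96 FPKM against 33.1, 38.3 and 42.8 FPKM (1.94, adjusted p = 0.0481), and Myc (0.93) were likewise higher in nascent RNA and lower in mRNA.

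By list, the nascent calls of immediate early genes were 10 higher and none lower of 32 tested, with a median of 0.431 against -0.047 for all genes. The immediate early count was 1 without DMSO replicate 2, 2 h replicate 1 or 2 h replicate 2, 4 without DMSO replicate 3, 5 without DMSO replicate 1 and 6 without 2 h replicate 3. The FGF-ERK and LIF-STAT3 lists each had 5 higher and none lower. Without DMSO replicate 2, 2 h replicate 1 or 2 h replicate 2 these counts were 2 and 3, and the FGF-ERK count was 3 without DMSO replicate 1 or DMSO replicate 3. For the amino acid response the nascent median was -0.206, and 3 of 25 were lower, Stc2, Slc3a2 and Slc7a1, a count that was 1 without DMSO replicate 1 and 0 without DMSO replicate 2, 2 h replicate 1 or 2 h replicate 2. Chac1 had low nascent values, 0.522, 0.403 and 0.306 FPKM in DMSO and 0.273, 0.29 and 0.315 FPKM at 2 h, whose groups overlapped (log2 change -0.19, adjusted p = 0.41). At this level the added 0.5 FPKM takes up much of a change. No cholesterol synthesis gene of 20 and no p53 target of 18 was called, with medians of -0.189 and 0.029. At an unadjusted p below 0.05 in limma there were 0 higher and 5 lower and 2 higher and 1 lower, respectively. For the nearest genes to SEs 22 of 187 were higher and none lower, against 1.58% and 1.97% of all genes. Their higher count was 14 without DMSO replicate 1 or DMSO replicate 3, 5 without DMSO replicate 2, and 4 without 2 h replicate 1 or 2 h replicate 2. Pluripotency genes gave 1 higher of 19, with a median of 0.288, and at an unadjusted p below 0.05 in limma 8 were higher and 0 lower. Unfolded protein response genes gave 5 higher and 0 lower of 15, with a median of 0.194. At an unadjusted p below 0.05 in limma, 10 of them were higher and 0 lower. How these counts depend on single libraries was not examined. Of 15 G1-S genes, 8 were lower. The G1-S count was 1 without DMSO replicate 1, DMSO replicate 2 or 2 h replicate 2, 2 without 2 h replicate 1 and 5 without 2 h replicate 3.

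**Figure D4:**
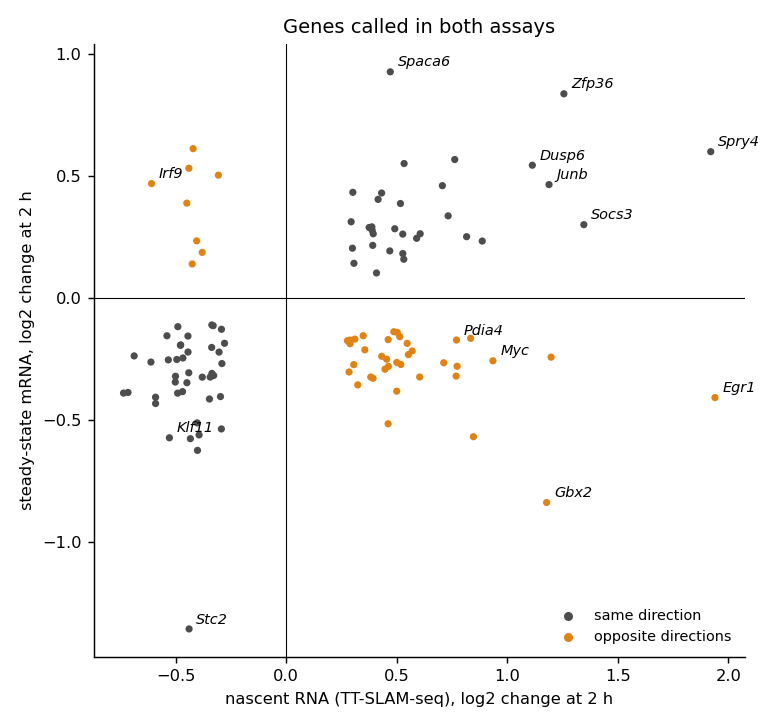
Log2 change at 2 h in nascent RNA (horizontal) and in steady-state mRNA (vertical) for the 118 genes called in both assays, 1 point per gene. The 73 grey points changed in the same direction and the 45 orange points in opposite directions. Spry4 and Zfp36 lie at the upper right, Stc2 at the lower left, and Gbx2 and Egr1 at the lower right.

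The levels at later times are given side by side, since all times share the DMSO libraries. Each adjusted p is for that time against DMSO. Chac1 was at 1.57 TPM at 2 h and at 4.22, 2.52 and 1.94 TPM at 6 h, 24 h and 96 h, against 27.6 TPM in DMSO (adjusted p between 3.9e-08 and 5.2e-12 at the later times). Trib3 was at 18.9, 15.3, 12.6 and 11 TPM from 2 h to 96 h, and Herpud1 at 8.9, 12.1, 10.4 and 11.4 TPM. The DMSO means were 50.3 TPM for Trib3 and 23.4 TPM for Herpud1. Stc2 was at 5.33 TPM at 6 h and at 10.5 and 13.5 TPM at 24 h and 96 h, against 16 TPM in DMSO.

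Some genes called at 2 h were not called at 6 h. Zfp296 was at 84.9 TPM at 2 h and at 33.3 TPM at 6 h (adjusted p = 0.43), then at 18.2 and 13 TPM. Hsd17b7 was at 14.4 TPM at 2 h, 9.07 TPM at 6 h (adjusted p = 0.12), 10.5 TPM at 24 h and 15.2 TPM at 96 h, against 8.25 TPM in DMSO. Nodal was at 92.2 TPM at 2 h, 60 TPM at 6 h (adjusted p = 0.11) and 29.5 TPM at 96 h. Gbx2 was at 32.8 TPM at 2 h, at 54.9 TPM at 6 h (adjusted p = 0.33) and at 6.35 and 2.97 TPM at 24 h and 96 h. Others were called at both times. Mdm2 was at 198 TPM at 2 h, 142 and 138 TPM at 6 h and 24 h, and 345 TPM at 96 h. Vegfa was at 20.2 TPM at 2 h and 21.1 TPM at 6 h, then at 51.9 TPM at 24 h (adjusted p = 0.0022) against 37.8 TPM in DMSO.

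**Figure D5:**
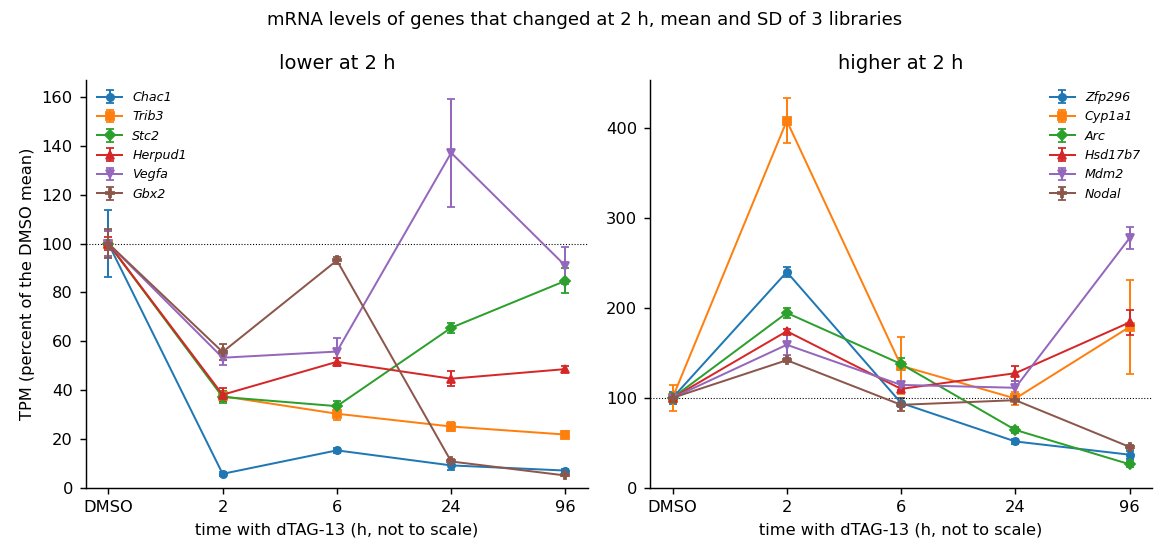
TPM as a percent of the DMSO mean for 6 genes lower at 2 h (left) and 6 higher at 2 h (right), in DMSO and after 2, 6, 24 and 96 h of dTAG-13. Points are means and bars SDs of 3 libraries, and the times are not drawn to scale. Chac1, Trib3 and Herpud1 stay low from 2 h on, while Zfp296 and Cyp1a1 peak at 2 h among the times shown, at 240% and 408% of DMSO.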

How the data were processed

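Per the labels and the methods of the study, polyadenylated RNA of TRIM28-FKBP mESCs was sequenced (TruSeq Stranded mRNA). Reads were trimmed with cutadapt 2.4, mapped with STAR 2.7.5a to mm10 and assembled with StringTie 2.0.6, per the submitters' processing notes. For each library the authors deposited a StringTie table that gives TPM and FPKM of every gene, normalised for length and sequencing depth. The coverage signal in the deposited tables, the mean read depth of each gene, is not scaled to library size and served only to compare depth. For TT-SLAM-seq the authors deposited FPKM per gene, from labelled reads counted with htseq-count after SLAM-DUNK mapping. Read numbers were not recovered, so that depth in reads is unknown. The 4 to 6 IDs that recur within a table were summed. Positions were checked against GENCODE vM21, where 53499 of 54409 shared IDs have the same chromosome, start and end. Promoter windows come from RefSeq (GRCm38.p6).

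TPM were compared on log2(TPM + 0.5) with limma 3.58.1 under R 4.3.3, using lmFit and a mean-dependent prior variance in eBayes, fitting the 15 time-course libraries together, with Benjamini-Hochberg adjustment over all genes tested. Nascent FPKM were compared in the same way on log2(FPKM + 0.5) in 12 libraries, for genes that reached 0.5 FPKM in 3 or more of them. Fold changes are on these scales, which understate changes of low genes. All p-values in the text are limma's and two-sided, and they are adjusted except where a count is given at an unadjusted p. A single gene tested alone with an exact permutation test of 3 against 3 libraries could not go below 0.1. The study describes its RNA-seq and TT-SLAM-seq data of this time course as 3 biological replicates. Nothing in the labels says that the 3 libraries of a group came from separate cultures. The p-values measure the spread between these samples, part of which may be technical. The script was tested on simulated data first.

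Gene lists are given as counts and medians, with no test of a list. The lists and the part of the series were chosen with earlier results of these data known. Named are Trim28, the 15 largest rises and falls among genes past 2-fold whose groups do not overlap, members of the 41 lists past 2-fold, up to 4 further called members per list, and Pou5f1, Sox2, Nanog, Klf4, Fgf4 and Mycn. Not every gene of this rule is printed, and 45 further genes with values in the text or behind it were chosen after their values were seen. The same replicate numbers do not pair the libraries: their deviations from the group means correlated at 0.038, 0.0025 and 0.0027. The deposited tables of the other assays of the series were not used here, apart from the SE and ERV positions. Results of some genes on the lists are not reported here.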

Additional observations from a re-analysis of the deposited data

Results flagged for a closer look

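Of the genes named in the text, 9 were called in both assays in opposite directions, with the groups of 3 libraries clear of each other in each assay. These genes had already passed the test in each assay, so the separation is no further support. In mRNA it held for 35.9% of all genes tested. The difference between the assays was not tested itself. Irf9 was higher in mRNA (log2 change 0.47) and lower in nascent RNA (-0.61). The other 8 were lower in mRNA and higher in nascent RNA. They were Gbx2 (-0.84 and 1.18), Egr1 (-0.41 and 1.94), Pim1 (-0.38 and 0.50), Il17rd (-0.32 and 0.60), Sox1 (-0.27 and 0.52), Xbp1 (-0.26 and 0.50), Myc (-0.26 and 0.93) and Pdia4 (-0.17 and 0.77). The mRNA call of Sox1 was lost in 5 settings, each with 1 library left out. Its nascent means were 0.368 FPKM in DMSO and 0.743 FPKM at 2 h, near the added 0.5. In limma the nascent adjusted p was 0.0481 for Egr1 and 0.049 for Pim1, close to the threshold. Of all 118 genes called in both assays, 37 were lower in mRNA and higher in nascent RNA and 8 the reverse. With 1 TT-SLAM-seq library left out these counts ran from 8 to 75 and from 0 to 11, and with centred libraries they were 65 and 11.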

How the results depend on the processing

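The counts of genes past 2-fold, 45 higher and 22 lower, moved with the treatment of low values. They were 28 and 12 with FPKM in place of TPM, 23 and 8 with a mean of at least 5 TPM, and 75 and 36 with a pseudocount of 0.1. Leaving out 1 library gave 33 to 67 higher and 17 to 24 lower. At any size, 968 to 1439 genes were higher and 685 to 1021 lower with 1 library left out. In TT-SLAM-seq, 211 higher and 263 lower became 459 higher when libraries were centred, and 22 and 10 with a mean of at least 5 FPKM. Leaving out 1 TT-SLAM-seq library gave 34 to 506 higher and 25 to 269 lower. The cause was not tested. With the replicate number as a block the RNA-seq counts were 1495 and 1246 at any size and 48 and 22 past 2-fold, and the TT-SLAM-seq counts 201 and 198. Since the numbers do not pair the libraries, this block is given only for completeness.

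Of 150 rule-named genes called in mRNA, 107 kept their call in each of the 15 settings in which they could be fitted, 43 lost it in at least 1 and 0 reversed. List counts with 1 library left out, or in the fit of 6 libraries, were alternatives chosen after seeing the data. With 3 libraries per group and TPM without read numbers, small changes of low genes are the least certain.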
